A study of Mus musculus with 3 samples.

Results

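The interleukin-1 (IL-1) ligand genes Il1a and Il1b, the antagonist gene Il1rn and the receptor genes Il1r1, Il1r2, Il1rap and Il1rl1 were followed through the leukocytes of naive and transplanted mouse lungs. These 7 genes, of 32285 in the files, were found by their symbols, and each had UMIs (unique molecular identifiers, 1 per captured transcript molecule) in all 3 single-cell RNA-Seq libraries. One library came from naive left lungs, and the others came from left lungs harvested 2 hours or 3 days after reperfusion. The grafts were B6 (CD45.2) lungs placed in B6 (CD45.1) recipients after 60 minutes of storage at 4 °C and 45 minutes at 28 °C. The strain label of all libraries was C57BL/6J, mice were 8 to 10 weeks old, and recipient cells were sorted from the grafts by staining for CD45.1 and CD45.2. Naive B6 lungs hold no recipient cells, and no source names the gate kept for that library, so how its cells were selected cannot be told apart from the condition in any comparison with naive lungs. Each condition had 1 library of cells pooled from 2 mice, so the libraries could be compared but the conditions could not be tested, and all 95% intervals cover counting error only.

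IL-1α and IL-1β bind the receptor encoded by Il1r1, which then pairs with the accessory protein encoded by Il1rap and signals through MyD88 and IRAK kinases. Il1rn encodes the receptor antagonist, which occupies the same receptor without signaling, and Il1r2 encodes a decoy receptor that binds IL-1 but lacks a signaling domain. Il1rl1 encodes ST2, which uses the same accessory protein to respond to IL-33 and is known from basophils, mast cells, type 2 innate lymphoid cells and regulatory T cells. IL-1β is made as an inactive precursor that caspase-1 and neutrophil proteases can cut, so transcript levels say nothing of mature cytokine. UMIs also do not separate the secreted and intracellular forms of Il1rn or the membrane and soluble forms of Il1rl1 and Il1rap.

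With the filters on genes, UMIs and mitochondrial share applied, 2422 naive, 10283 2-hour and 8324 3-day cells remained, with a median of 7298.5, 878 and 5716.5 UMIs per cell. Clusters were named from marker genes that included none of the 7 members, and the members were also left out of the clustering. Neutrophil-like cells numbered 388, 4021 and 2281 in the naive, 2-hour and 3-day libraries, monocyte-like cells 144, 512 and 1252, macrophage-like cells 129, 78 and 938, and basophil-like cells 20, 68 and 111. The lymphoid groups comprised 330 to 1021 NK-like, 576 to 2507 T-like and 555 to 1903 B-like cells per library. Most clusters came from 1 library: neutrophil-like cells fell in cluster 17 (naive lungs), clusters 0 and 5 (2 hours) and cluster 1 (3 days). The neutrophil label was weakest for cluster 0, which held 2725 of the 2-hour cells. Its neutrophil markers had a median log2 ratio of 1.52, against 2.41 in cluster 5. Macrophage-like cells were led by alveolar macrophage genes in naive lungs (cluster 27), and at 3 days by Saa3 and Arg1 (cluster 9) or Siglech and C1qb (cluster 16). Cluster 27 had 102 naive cells, whereas the alveolar macrophage cluster found without the cell filter had 285. The median of that larger cluster, 27132 UMIs per cell, was above the upper UMI limit of the filter. Levels and shares of naive macrophage-like cells therefore rest on the cells that the filter kept. Cluster 16 is called the C1q cluster for its nearest marker list (median log2 ratio 3.32), but plasmacytoid dendritic cell markers came next (2.78). Without the cell filter, 162 cells at 3 days led by Mgl2 and Siglech clustered apart from 248 led by Fcrls and C1qb. Levels of cluster 16 are therefore not those of macrophages alone. Levels are given as UMIs of the gene per 1000000 UMIs of the lineage in a library (CPM), and a ratio entered a comparison if the gene averaged at least 10 CPM and had at least 20 UMIs over both libraries. At 2 hours the macrophage label was weak, because plasmacytoid dendritic cell markers summed to 2129 CPM in these cells against 749 CPM for the C1q macrophage markers. Barcodes shared between libraries numbered 1 to 23 per pair.

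The naive library differed from the transplants in its mice, its preparation and its version of Cell Ranger (7.1.0 against 6.0.0), and these cannot be told apart from transplantation. Genes with long introns were lower in both transplants: in neutrophil-like cells at 2 hours over naive, the median log2 ratio was -1.47 for genes with over 100 kb of introns and 0.19 for those with under 10 kb. The median over all 5460 genes compared was -0.25. The introns of Il1a, Il1b and Il1rn are under 10 kb in all, those of Il1rl1, Il1r2 and Il1r1 span 29.0, 49.2 and 85.8 kb, and those of Il1rap 137.1 kb.

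**Figure D1:**
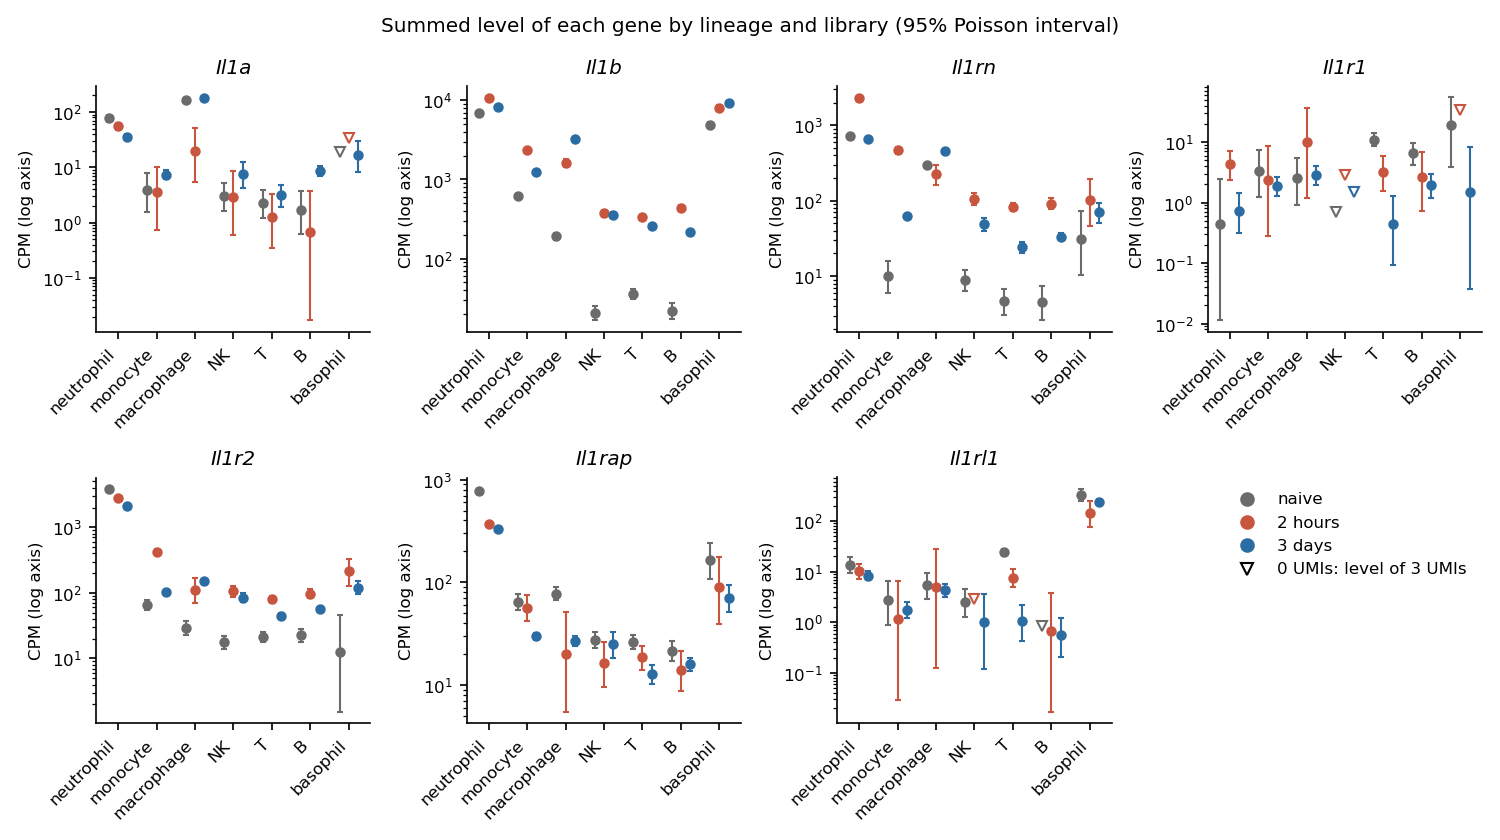
Level of each gene in CPM (log axis) by lineage, with 1 point per library (gray naive, red 2 hours, blue 3 days), bars for the 95% Poisson interval and open triangles at the level of 3 UMIs where none was found. Il1b was highest in neutrophil-like and basophil-like cells, Il1r2 in neutrophil-like cells and Il1rl1 in basophil-like cells in all 3 libraries, and Il1r1 was at most 18.9 CPM in these lineages.

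Il1b and Il1a, the ligand genes, lie near each other on the minus strand of chromosome 2 (GRCm38), Il1a at chr2:129299610-129309972 and Il1b at chr2:129364570-129371139. Their promoters are shown because levels of these neighboring genes differed in where they were found. Both sequences are the 250 bases before the start in RefSeq (GRCm38.p6), 5′ to 3′ on the strand of the gene, at chr2:129309973-129310222 for Il1a and chr2:129371140-129371389 for Il1b. Capitals mark matches to letters of AP-1 (TGANTCA), PU.1 (GAGGAA), C/EBP (TTNCNNAA) or the TATA box (TATAAA).
Il1a promoter: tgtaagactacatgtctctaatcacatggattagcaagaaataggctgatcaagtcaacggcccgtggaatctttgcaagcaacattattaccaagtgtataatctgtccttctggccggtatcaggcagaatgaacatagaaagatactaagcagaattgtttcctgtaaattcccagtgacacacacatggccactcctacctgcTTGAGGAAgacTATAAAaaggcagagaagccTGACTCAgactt
Il1b promoter: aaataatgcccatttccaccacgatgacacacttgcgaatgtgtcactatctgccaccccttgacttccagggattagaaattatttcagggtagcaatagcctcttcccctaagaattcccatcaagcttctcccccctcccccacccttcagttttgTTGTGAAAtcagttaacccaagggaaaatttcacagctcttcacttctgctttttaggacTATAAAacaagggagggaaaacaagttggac
The TATA letters start 32 bases before the Il1a start and 31 bases before the Il1b start, and 7.59% of 32851 mouse promoters of this length hold them on the strand of the gene. The C/EBP letters occurred in both, on the opposite strand, and in 36.8% of all promoters. AP-1 and PU.1 letters occurred for Il1a, where the PU.1 match overlaps the C/EBP match, and are held by 6.75% and 23.3% of promoters on either strand. No match to the NF-κB motif was found in either window, and 3.90% of promoters hold one.

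Il1b had most UMIs of the members in neutrophil-like cells, whose level was 6894 CPM in naive lungs, 10868 CPM after 2 hours and 8250.0 CPM after 3 days. These levels rest on 15489, 38035 and 89826 UMIs, and their intervals did not overlap. The 2-hour value was 1.58-fold the naive value (log2 ratio 0.66, interval 0.63 to 0.68), and the 3-day value was lower than that at 2 hours by a log2 ratio of -0.40 (-0.41 to -0.38). The 2-hour difference was short of 2-fold, a bound that 9.29% of genes compared exceeded upward and 23.6% downward. It came to 0.18 when only genes with under 10 kb of introns formed the total. Nearly all neutrophil-like cells carried the transcript, with 82.2%, 92.4% and 86.5% of cells positive when each was thinned to 500 UMIs. Il1bos, an antisense gene whose exons overlap those of Il1b, had 20.3 to 35.4 CPM in these cells. Neutrophil-like cells held 84.9%, 79.8% and 53.4% of the Il1b UMIs of the naive, 2-hour and 3-day libraries, and in the last of these macrophage-like cells held 22.4% and monocyte-like cells 12.5%.

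Basophil-like cells had Il1b levels near those of neutrophil-like cells, at 4946 (naive), 8112 (2 hours) and 9338 CPM (3 days). Their order against neutrophil-like cells turned between libraries: they were lower in naive lungs and at 2 hours and higher at 3 days, with no overlap of intervals. The cells were few, but 80.0%, 76.5% and 88.3% of them had an Il1b UMI after thinning. Their basophil markers summed to 6725 to 7952 CPM, with only Prss34 at 0 in the 2-hour library. Of 6 mast cell markers, Cma1, Tpsb2, Mcpt4, Tpsab1 and Slc45a3 were at 0 in all 3 libraries. Neutrophil transcripts were present at a low level, since S100a8 and S100a9, the abundant calgranulin genes of neutrophils, came to 94.6, 920.0 and 3571 CPM. Basophil-like cells had 5227, 882 and 261 Il1b UMIs per 100 UMIs of S100a8 and S100a9, against 6.57, 28.8 and 6.03 in neutrophil-like cells. At the neutrophil ratio, the S100a8 and S100a9 UMIs would come with 6.22, 265 and 215 CPM of Il1b, and the remainder was 4940.0, 7847 and 9123 CPM.

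**Figure D2:**
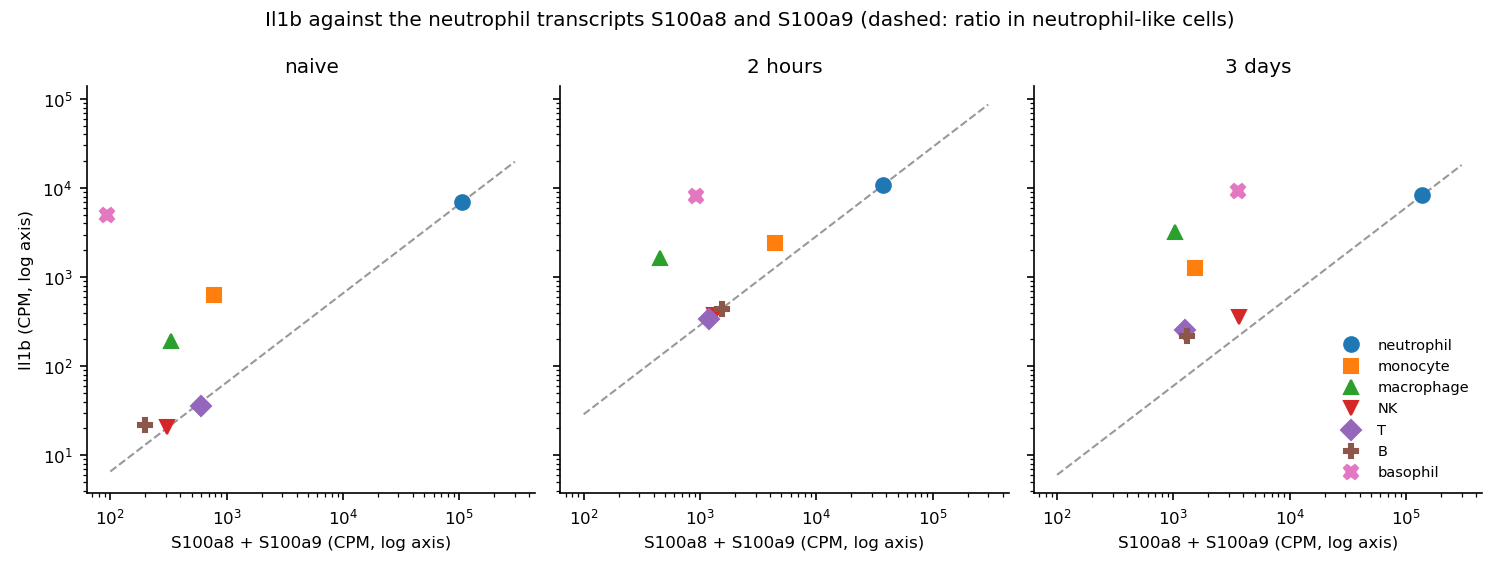
Il1b against summed S100a8 and S100a9 (both in CPM, log axes), 1 panel per library and 1 point per lineage, with a dashed line at the ratio found in neutrophil-like cells. NK-like, T-like and B-like cells lay close to the line at 2 hours, and basophil-like, macrophage-like and monocyte-like cells lay above it in every library.

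In NK-like, T-like and B-like cells Il1b was set beside S100a8 and S100a9. Their Il1b levels were 20.6 to 35.9 CPM in naive lungs, 335 to 442 CPM at 2 hours and 220 to 359 CPM at 3 days. At 2 hours they had 28.3, 27.8 and 28.7 Il1b UMIs per 100 UMIs of S100a8 and S100a9, next to 28.8 in neutrophil-like cells. In naive lungs the ratios were 6.66, 5.91 and 10.95, and at 3 days 9.81, 20.3 and 16.7. In the 2-hour library, the 5% of cells with most Il1b UMIs held 93.5%, 91.9% and 89.97% of them. Only 7.54%, 8.34% and 9.02% of cells there had any Il1b UMI. The top 5% held 85.2%, 90.4% and 64.9% in naive lungs and 77.1%, 76.8% and 65.8% at 3 days. Il1b of the lymphoid groups was 9.32- to 20.2-fold higher at 2 hours than in naive lungs. Whether this was a difference in their own expression was not tested, and it is not read as one. The ratios at 3 days were above the 6.03 of neutrophil-like cells in that library. At 2 hours, called doublets made up 8.81%, 5.54% and 5.45% of NK-like, T-like and B-like cells. In naive lungs they were 0.97%, 3.82% and 0.36%, and at 3 days 8.79%, 5.09% and 2.15%. The part of free RNA or of doublets in these Il1b levels was not tested. In thinned T-like cells, 1.04%, 5.66% and 6.36% had an Il1b UMI, at median depths before thinning of 9842.5, 1130 and 8814 UMIs.

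Il1b in monocyte-like cells was 626 CPM (naive), 2384 CPM (2 hours) and 1257 CPM (3 days). At 2 hours it was 3.81-fold the naive value (log2 ratio 1.93, 1.82 to 2.04), and the 3-day value was lower than that at 2 hours (log2 ratio -0.92, -0.99 to -0.86). The clusters behind these values differed by library. They were cluster 25 in naive lungs (137 of 144 cells), cluster 11 at 2 hours (510 of 512), and at 3 days cluster 7 (745 of 1252), nearest to classical monocyte markers, and cluster 15 (434). Clusters 11, 15 and 25 were nearest to nonclassical markers, with classical markers close behind in 11 and 25. At 3 days Il1b was 1058 CPM in cluster 7 and 1943 CPM in cluster 15, both below the 2394 CPM of cluster 11 at 2 hours and above the 634 CPM of cluster 25. Neutrophil transcripts followed the same order, with S100a8 and S100a9 at 778, 4419 and 1529 CPM, although monocytes also transcribe these genes. With the Il1b that goes with these UMIs in neutrophil-like cells taken away, 575, 1111 and 1165 CPM remained, and the log2 ratio of 3 days to 2 hours became 0.069. Calling cells singly by markers in place of clusters gave -0.10. The log2 ratio of 2 hours to naive was 0.95 after the subtraction and 1.33 with cells called singly, so the higher value at 2 hours kept its direction but not its size.

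Il1b in macrophage-like cells was 191 CPM (naive), 1624 CPM (2 hours) and 3211 CPM (3 days). From naive to 2 hours Il1b and Il1r2 were at least 2-fold higher and Il1a and Il1rap lower of 5 members, against 12.1% and 37.5% of genes. The 3-day value was 16.8-fold the naive value (log2 ratio 4.07, 3.94 to 4.21), where 9.16% of 8078 genes were at least 2-fold higher and 22.3% at least 2-fold lower. The cells compared were of different kinds, the naive ones led by alveolar macrophage genes such as Lpl and Ear1 and those at 3 days by Saa3 and Arg1 or by Siglech and C1qb. Within the 3-day library the Arg1 cluster 9 had 3455 CPM and the C1q cluster 16 had 2888 CPM, both above the 140 CPM of naive cluster 27. S100a8 and S100a9 were at 331 to 1032 CPM in these cells, and the neutrophil ratio ascribes 62.2 of the 3211 CPM at 3 days to them.

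Il1a was low in most lineages and differed between clusters of macrophage-like cells, whose mix differed between the libraries. Cluster 16 held 73 of these cells at 2 hours and 304 at 3 days, and cluster 9 held 5 and 634. Cluster 27 held naive cells only. In macrophage-like cells it was 165 CPM in naive lungs, 19.99 CPM after 2 hours on 4 UMIs and 178 CPM after 3 days. Alone of 5 members it was at least 2-fold higher at 3 days than at 2 hours, as were 26.4% of genes, with 14.2% lower. That ratio set cells mostly of cluster 16 at 2 hours beside cells mostly of cluster 9 at 3 days. A change within either cluster was not tested. The naive and 3-day values did not differ beyond counting error (log2 ratio 0.11, -0.05 to 0.27). Almost all of it came from cluster 27 in naive lungs (197 CPM) and from the Arg1 cluster 9 at 3 days (298 CPM), while the C1q cluster 16 of the same 3-day library had 17.8 CPM. Il1a UMIs per 100 Il1b UMIs were 86.4 in naive macrophage-like cells and 5.53 at 3 days, against 1.11, 0.51 and 0.43 in neutrophil-like cells. A ratio of UMIs between genes is not a ratio of molecules, but the same pair can be compared between lineages. Of thinned macrophage-like cells at 3 days, 78.0% of those with an Il1a UMI also had an Il1b UMI (68.1% to 86.0%), against 47.7% of those without (44.3% to 51.1%).

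In neutrophil-like cells Il1a was 76.6, 55.1 and 35.7 CPM in naive, 2-hour and 3-day libraries. The 3-day value was below the naive one by a log2 ratio of -1.10 (-1.36 to -0.83), where 16.1% of 5575 genes were at least 2-fold lower and 7.48% at least 2-fold higher. This order depended on which cells were counted as neutrophils. A separate cluster of 124 cells at 3 days, cluster 26, was led by Tnf, Ccl3, Il23a and Siglecf. It had UMIs of all 10 neutrophil markers, at 21344 CPM in sum against 152331 CPM in neutrophil-like and 13659 CPM in endothelial-like cells of that library. It stayed unnamed because no marker list was raised in it over other cells, the highest median log2 ratio being -0.008, for mast cells. Whether its cells were neutrophils was not settled. Cluster 26 had 959 CPM of Il1a, the highest level in any cluster described here, and 16.5% of the Il1a UMIs of its library. Counting it and the similar 2-hour cluster 18 with the neutrophil-like cells turned the 3-day to naive log2 ratio of Il1a to 0.10. Cluster 18 had 0 naive cells and no Il1a UMI in its 2 cells at 3 days, so the turn came from cluster 26. Basophil-like cells had no Il1a UMI in naive lungs or at 2 hours, where 3 UMIs would give 18.9 and 33.7 CPM, and 11 at 3 days.

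**Figure D3:**
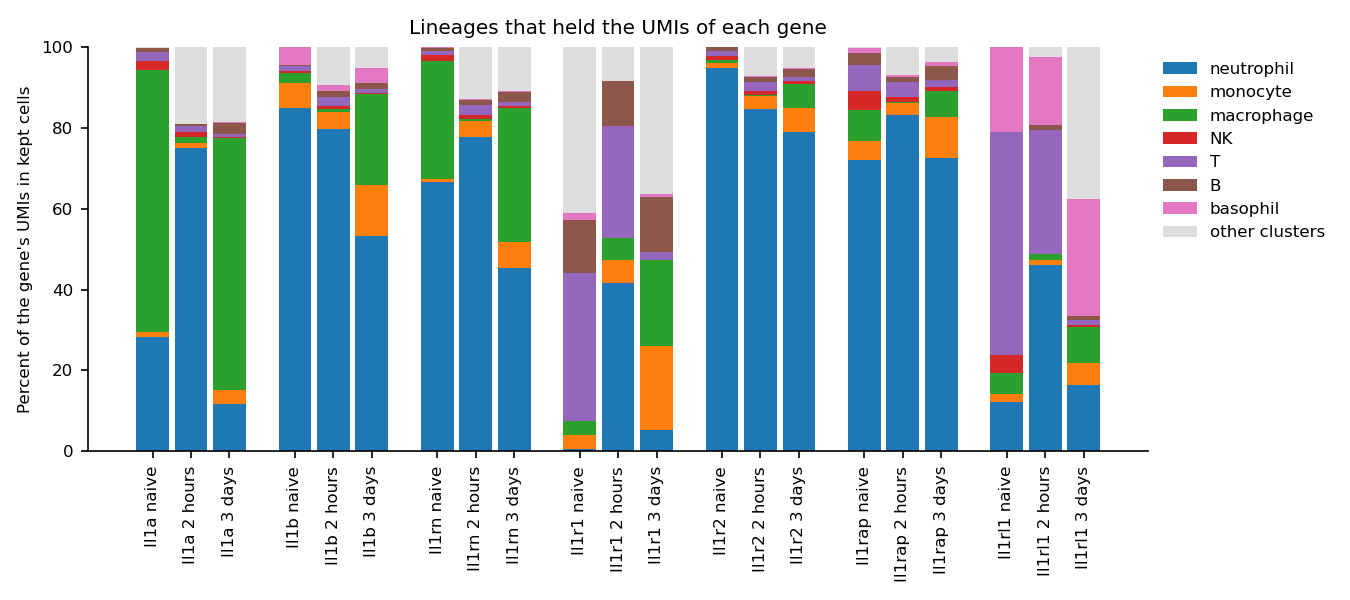
Percent of the UMIs of each gene in kept cells that fell in each lineage, 1 bar per gene and library, with remaining clusters in gray. Neutrophil-like cells held 78.9% to 94.7% of Il1r2 UMIs, and macrophage-like cells held 64.9% and 62.1% of Il1a UMIs in naive lungs and at 3 days but 1.56% at 2 hours. The naive macrophage-like share leaves out alveolar macrophages removed by the cell filter.

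Il1rn (chr2:24336853-24351494, plus strand), the antagonist gene, stood out at 2 hours. In neutrophil-like cells it was 723 CPM (naive), 2305 CPM (2 hours) and 664 CPM (3 days). Its 2-hour level was 3.19-fold the naive value (log2 ratio 1.67, 1.60 to 1.75) and the 3-day value was 3.47-fold below that at 2 hours (log2 ratio -1.80, -1.84 to -1.75). Of the 6 members that could be compared in neutrophil-like cells between 2 hours and naive, Il1rn alone was at least 2-fold higher, where the share over all genes was 9.29%, and Il1rap alone was at least 2-fold lower, where it was 23.6%. From 2 hours to 3 days, Il1rn alone of 5 members was at least 2-fold lower, as were 6.68% of genes, and 13.4% of genes were at least 2-fold higher. After thinning, 27.8%, 51.3% and 23.5% of neutrophil-like cells had an Il1rn UMI, against 0.174%, 1.72% and 1.13% of T-like cells.

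Il1rn per 100 Il1b UMIs in neutrophil-like cells was 10.5 in naive lungs (9.96 to 11.04), 21.2 at 2 hours (20.7 to 21.7) and 8.05 at 3 days (7.86 to 8.25). The 2-hour ratio was 2.02-fold the naive one (log2 ratio 1.02, 0.93 to 1.10), and this ratio within cells of 1 library needs no scaling to a total. The antagonist transcript therefore made up a larger part beside Il1b at 2 hours than in the other libraries. Naive macrophage-like cells had 155 Il1rn UMIs per 100 of Il1b, and those at 2 hours and 3 days had 13.8 and 14.0. Basophil-like cells were at the other end, with 0.64, 1.24 and 0.75, and their 5, 9 and 47 Il1rn UMIs gave intervals that overlapped between all libraries.

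**Figure D4:**
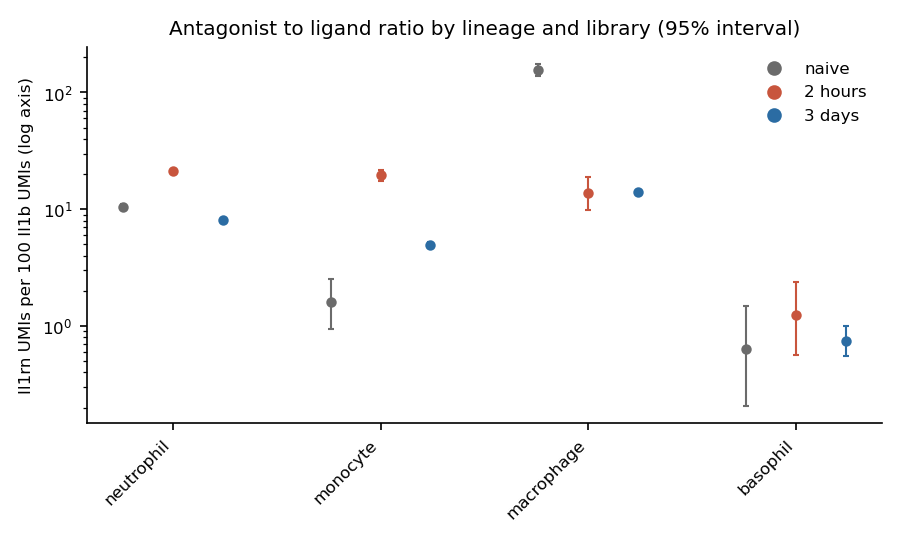
Il1rn UMIs per 100 Il1b UMIs (log axis) by lineage, with 1 point per library and bars for the 95% interval. Neutrophil-like cells were highest at 2 hours (21.2), macrophage-like cells were highest in naive lungs (155), and basophil-like cells stayed between 0.64 and 1.24.

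In monocyte-like cells Il1rn was 10.02 CPM on 18 UMIs in naive lungs, 465 CPM after 2 hours and 62.1 CPM after 3 days. That at 2 hours was 46.4-fold the naive one (log2 ratio 5.54, 4.86 to 6.31), between cells of clusters 25 and 11. At 3 days cluster 7 had 55.1 CPM and cluster 15 had 83.6 CPM. Il1b, Il1rn and Il1r2 were at least 2-fold higher among 4 members compared, against 8.88% of 7398 genes, with 26.8% at least 2-fold lower. Neutrophil RNA at the S100a8 and S100a9 ratio would account for 5.36, 270.1 and 7.42 CPM of these Il1rn levels, leaving 4.66, 195 and 54.7 CPM, in the same order. At 3 days over naive, Il1b and Il1rn were at least 2-fold higher and Il1rap lower, against 3.16% and 15.7% of genes. At 3 days over 2 hours, Il1rn and Il1r2 were at least 2-fold lower, as were 7.73% of genes, and 13.8% were higher.

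Macrophage-like cells had 296, 225 and 449 CPM of Il1rn in naive, 2-hour and 3-day libraries. The 3-day value was 1.52-fold the naive value (log2 ratio 0.60, 0.49 to 0.72), and the naive and 2-hour values did not differ beyond counting error (log2 ratio -0.40, -0.87 to 0.04). At 3 days the Arg1 cluster (443 CPM) and the C1q cluster (458 CPM) had overlapping intervals, unlike their Il1a levels.

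Within the 2-hour library, neutrophil-like cells formed a pair of clusters that differed in the members. Cluster 0 (2725 cells) was led by Scgb1a1 and then by genes such as Cxcl3, Nlrp3 and Cxcl2. Cluster 5 (1295 cells) was led by the granule genes Ngp, Camp and Ltf. None of the top 10 genes of cluster 0 was a neutrophil marker. In it 7 neutrophil markers exceeded a log2 ratio of 1, against 6 in unnamed cluster 18. Il1rn was 2820.0 CPM in cluster 0 and 1213 CPM in cluster 5, Il1b was 12108 and 8240.1 CPM, and Il1a was 74.0 and 15.2 CPM. Il1r2 differed less, at 2872 and 2493 CPM, and Il1rap was 381 and 344 CPM with overlapping intervals. A further 375 cells at 2 hours, cluster 18, were led by Ccl4, Ccl3 and Spp1 and stayed unnamed because Spp1 was a macrophage marker here, although their neutrophil markers summed to 48303 CPM. They had the highest Il1rn level of these clusters, 3643 CPM, with 12163 CPM of Il1b and 29.9 Il1rn UMIs per 100 of Il1b. Cluster 26 at 3 days resembled it, with 2636 CPM of Il1rn, 12210.0 CPM of Il1b and 21.6 Il1rn UMIs per 100 of Il1b, where neutrophil-like cluster 1 of that library had 663 CPM of Il1rn. The clusters were built from these cells without the members, so these are descriptions and no test was made.

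**Figure D5:**
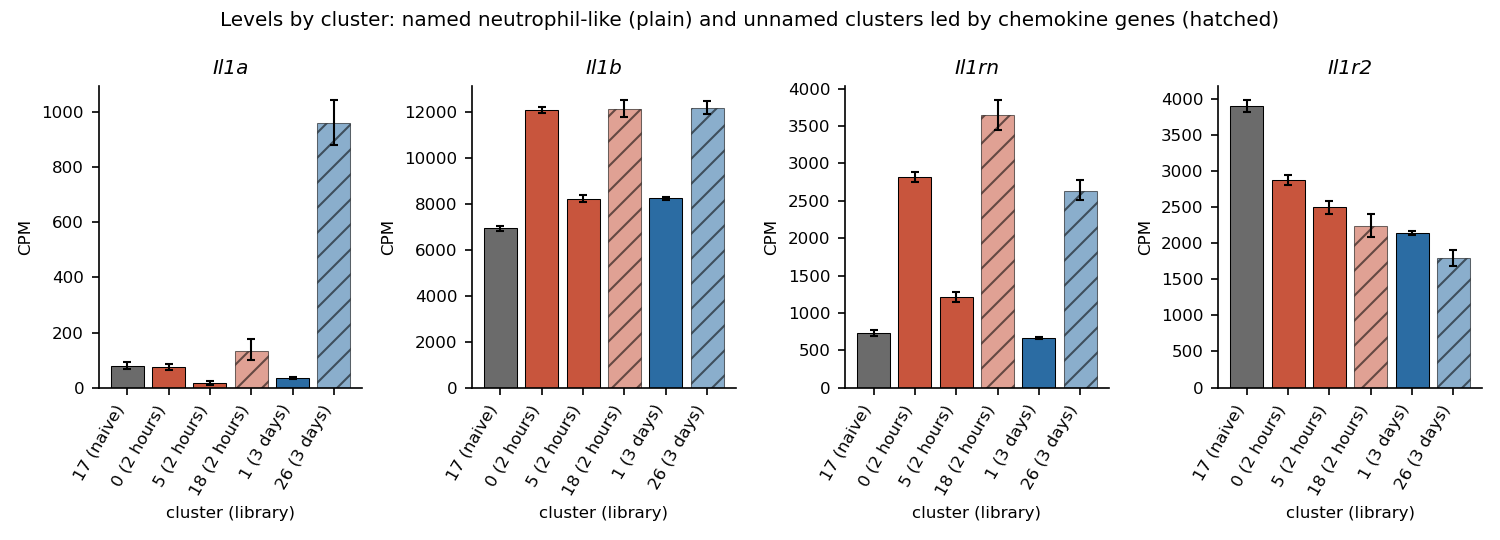
Levels of Il1a, Il1b, Il1rn and Il1r2 (CPM, bars from 0, with 95% Poisson intervals) in the named neutrophil-like clusters (plain) and in unnamed clusters 18 and 26 (hatched), colored by library as before. Il1rn was highest in cluster 18 (3643 CPM) and Il1a in cluster 26 (959 CPM), and Il1r2 was highest in naive cluster 17 (3892 CPM).

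Il1r2 (chr1:40074079-40125231, plus strand), the decoy receptor gene, was the receptor gene with most UMIs. In neutrophil-like cells it was 3793 (naive), 2750.5 (2 hours) and 2128 CPM (3 days), and these intervals did not overlap. Naive lungs exceeded 2 hours 1.38-fold (log2 ratio -0.46, -0.51 to -0.42), close to the median of -0.34 for genes with 10 to 100 kb of introns. The 3-day value was 1.78-fold below the naive value (log2 ratio -0.83, -0.87 to -0.80), beyond the median of -0.03 for such genes. Thinned cells with an Il1r2 UMI made up 74.7%, 68.0% and 59.1% of neutrophil-like cells and 0.174%, 2.09% and 0.849% of T-like cells. In monocyte-like cells Il1r2 was 65.7, 424 and 103 CPM, of which the neutrophil ratio would account for 28.1, 322 and 23.8 CPM. In macrophage-like cells it was 29.4, 110.0 and 152 CPM, and at 3 days the C1q cluster (238 CPM) was above the Arg1 cluster (87.4 CPM). Basophil-like cells had 2, 19 and 81 UMIs of it, or 12.6, 213 and 120 CPM. The antisense gene Gm16894 overlaps the span of Il1r2 without sharing exons and had at most 15.1 CPM in neutrophil-like cells.

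Il1rap (chr16:26581704-26730117, plus strand), the accessory chain gene, was highest in neutrophil-like cells at 779, 369 and 327 CPM. The 2-hour value was 2.11-fold below the naive value (log2 ratio -1.08, -1.18 to -0.97). Genes with over 100 kb of introns were lower by more at the median (-1.47), so that relative to such genes the log2 ratio was 0.39. At 3 days it was -1.25, and 0.12 relative to them. Monocyte-like cells had 64.6, 56.4 and 29.6 CPM of Il1rap. Macrophage-like cells had 77.6, 19.99 and 27.02 CPM, and basophil-like cells had 164, 89.8 and 69.9 CPM. The difference of Il1rap between naive and transplanted lungs thus moved with intron length, whose part in the result was not tested. Between the transplants, neutrophil-like cells differed by a log2 ratio of -0.18 (-0.27 to -0.08).

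Il1r1 (chr1:40225080-40317257, plus strand), the signaling receptor gene, was scarce in the 7 lineages. It ranged from 0 to 18.9 CPM, the highest on 3 UMIs in naive basophil-like cells. NK-like cells had no UMI in any library, where 3 UMIs would give 0.70, 2.90 and 1.49 CPM. Neutrophil-like cells had 1, 15 and 8 UMIs, next to 8523, 9626 and 23170 of Il1r2. Cells outside the leukocyte lineages had more: 88 endothelial-like cells of the naive library had 261 CPM (204 to 329) and 40.6% of Il1r1 UMIs in that library, on 71 UMIs from 10 cells. Endothelial cells lack CD45, the protein stained for the sort. The endothelial-like cells formed cluster 22, where Sftpc led and erythroid markers (median log2 ratio 4.04) came next after endothelial ones (5.29). Without the cell filter, 52 naive cells led by Hbb-bs, Hba-a1 and Sftpc clustered apart from 113 naive endothelial-like ones. Levels of cluster 22 may therefore not be those of endothelial cells alone. Endothelial-like cells had 53.9 CPM on 3 UMIs at 2 hours and 11.7 CPM on 7 UMIs at 3 days, when neutrophil markers summed to 13659 CPM in them against 206 CPM in naive lungs. In naive T-like cells, 39 cells with a UMI of Trdc, the constant gene of the γδ T cell receptor, held 48 of 64 Il1r1 UMIs, or 121 CPM against 2.95 CPM in T-like cells without one. This split, and those by Foxp3 and Il5 below, was chosen after the values were seen. At 3 days an unnamed cluster of 346 cells led by Ikzf2, Rora and Il5 (cluster 20) held 30.5% of Il1r1 UMIs at 17.1 CPM.

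Il1rl1 (chr1:40429570-40465415, plus strand), the ST2 gene, was highest in basophil-like cells at 334 CPM (250.5 to 437) in naive lungs, 146 CPM (77.7 to 249.4) after 2 hours and 239 CPM (204 to 279) after 3 days. At 2 hours, on 13 UMIs, it was 2.29-fold below the naive level (log2 ratio -1.20, -2.20 to -0.30), where 29.4% of 1750 genes were at least 2-fold lower and 13.3% higher. The 3-day value did not differ from that at 2 hours beyond counting error (log2 ratio 0.72, -0.10 to 1.66). No basophil-like member reached 2-fold between 2 hours and 3 days, where 19.6% of genes were higher and 8.35% lower. Of 5 members compared in these cells at 3 days over naive, Il1rn and Il1r2 were at least 2-fold higher and Il1rap lower. The shares of all genes were 15.7% and 14.4%. That Il1rn ratio, on 5 naive UMIs, did not differ from 0 beyond counting error (log2 ratio 1.15, -0.18 to 2.84), and that of Il1r2 starts from 2 naive UMIs.

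T-like cells had 24.1, 7.67 and 1.04 CPM of Il1rl1. Of 5 members compared in these cells it was at least 2-fold lower in both transplants than in naive lungs, joined by Il1rap at 3 days, as were 26.9% of genes at 2 hours and 19.7% at 3 days. Il1b, Il1rn and Il1r2 were at least 2-fold higher in both, as were 7.28% and 3.01% of genes. The neutrophil ratio covers these levels at 2 hours except 9.85 CPM of 83.4 CPM of Il1rn. At 3 days it leaves 181 of 258 CPM of Il1b, 18.02 of 24.2 CPM of Il1rn and 24.9 of 44.6 CPM of Il1r2. Monocyte-like and macrophage-like cells at 3 days had 82.2 and 311 Il1b UMIs per 100 of S100a8 and S100a9. RNA from such cells was not subtracted, and its part in the remainder was not tested. Between the transplants 7.54% of genes were higher and 8.02% lower, and of 4 members Il1rn alone was lower. The values rested on few cells: 3 naive T-like cells with an Il5 UMI held 49 of 140 Il1rl1 UMIs, and 41 cells with a UMI of Foxp3, the regulatory T cell factor, held 20 of 24 at 2 hours (322 CPM against 1.30 CPM without). At 3 days such cells fell mostly in cluster 20, where 37 Foxp3-positive cells had 364 CPM and 4 Il5-positive cells had 75 UMIs, or 1725 CPM. The lower level in T-like cells at 3 days therefore moved with where these cells were clustered, and without the cell filter the 3-day to naive log2 ratio of -4.53 became 0.00325. Neutrophil-like cells had 13.8, 10.3 and 8.36 CPM, with overlapping intervals between naive and 2 hours.

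Genes with profiles most like each member were sought over 20 lineage-by-library profiles and 8137 genes, by Pearson correlation of log2(CPM + 10). These profiles share libraries, depth and any neutrophil RNA, so the values are descriptions. Of the genes named below, Lcn2, Spp1 and Il13 were also in the marker lists. Their likeness to a member was therefore in part set by how the cells were named. Il1b was most like Clec4e (0.97), a pattern receptor gene of myeloid cells, Adam8 (0.96) and Lilrb4a (0.95). Il1rn was most like Cd33 (0.94), Cd300lf (0.92) and Cxcl3 (0.92), and Il1r2 like Lcn2, the neutrophil granule gene, Mirt2 and Slc7a11 (all 0.96). Il1rap was most like Rnf11 (0.96), Tnfrsf23 (0.95) and Pram1 (0.92). Il1a was most like Spp1 (0.96), Maff (0.93) and Bst1 (0.89), and Il1rl1 like Klf5, Il13 and Il4 (all 0.94), the last of which are cytokine genes of basophils and type 2 lymphocytes. Il1r1 averaged 2.78 CPM and gave no correlation above 0.77.

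Genes of IL-1 receptor signaling differed little from all genes in neutrophil-like cells at 2 hours over naive, with a median log2 ratio of -0.28 against -0.25. None of 14 compared was at least 2-fold higher and 5 were lower, where 9.29% and 23.6% of all genes were. At 3 days over naive, 0 were higher and 3 lower, against 7.48% and 16.1%. Of 13 compared in monocyte-like cells, 0 were higher and 2 lower than naive at 2 hours, against 8.88% and 26.8% of all genes. At 3 days 0 were higher and 3 lower, against 3.16% and 15.7%. Of 14 in macrophage-like cells, 0 were higher and 9 lower at 2 hours, against 12.1% and 37.5%. At 3 days 0 were higher and 2 lower, against 9.16% and 22.3%. Of 15 in T-like cells, 1 was higher and 4 lower at both times. The shares of all genes there were 7.28% and 26.9% at 2 hours and 3.01% and 19.7% at 3 days. In basophil-like cells at 3 days 2 of 10 were higher and 4 lower, against 15.7% and 14.4%. The remaining values of this paragraph are those of neutrophil-like cells. Irak2, a signaling kinase gene, had 1124 CPM in naive lungs, 217 CPM at 2 hours and 119 CPM at 3 days. Irak3, which encodes an inhibitory family member, had 318, 125 and 98.5 CPM. Of 7 processing and release genes compared, 0 were at least 2-fold higher than naive at 2 hours or at 3 days. Aim2, a DNA sensor gene, alone was at least 2-fold lower at both times. The shares of all genes were 9.29% and 23.6% at 2 hours and 7.48% and 16.1% at 3 days. From 2 hours to 3 days, 2 of 7 were higher and 1 lower, against 13.4% and 6.68% of all genes. Casp1, which encodes caspase-1, was higher at 10.0 and 31.2 CPM, as was Capn1. Nlrp3, the inflammasome sensor gene, was lower at 1393 and 630.0 CPM. Il18, another cytokine gene of the family, was 123, 18.9 and 9.92 CPM.

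Genes that IL-1 is known to induce in many cells, and that other stimuli induce too, differed between lineages and times. In neutrophil-like cells at 2 hours over naive, 7 of 15 compared were at least 2-fold higher and 1 lower, against 9.29% and 23.6% of all genes, with a median log2 ratio of 0.87. At 3 days over naive 3 of 16 were higher and 2 lower, against 7.48% and 16.1% of all genes. Cxcl2, a neutrophil chemoattractant gene, had 2215, 18830.4 and 3452 CPM in the 3 libraries, and Cxcl3 had 65.4, 2135 and 126 CPM. Both were highest at 2 hours, as Il1rn was. In macrophage-like cells at 3 days over naive, 11 of 18 were at least 2-fold higher and none lower, against 9.16% and 22.3% of all genes, with a median of 1.71 against -0.21. Macrophage-like cells at 2 hours over naive had 2 of 16 higher, near the 12.1% of all genes, and 3 lower, against 37.5%. Monocyte-like cells had 6 higher and 2 lower of 14 at 2 hours, against 8.88% and 26.8% of all genes. At 3 days they had 3 higher and 2 lower, against 3.16% and 15.7%, and the median was -0.09. T-like cells had 4 higher and 1 lower of 13 at 2 hours over naive, against 7.28% and 26.9% of all genes. Cxcl3 and Cxcl2 differed most in monocyte-like and T-like cells at 2 hours, as they did in NK-like and B-like cells. The part of neutrophil RNA in these values was not tested. In macrophage-like cells of the naive and 3-day libraries, Il6 was 0.42 and 370 CPM, on 1 and 4337 UMIs. Saa3 was 0.42 and 4290.4 CPM in these cells, and Ptgs2, the inducible cyclooxygenase gene, was 2.94 and 938 CPM. Saa3 was also a marker of the Arg1 macrophage list, so its level was in part set by how the cells were named.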

How the data were processed

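Droplet single-cell RNA-Seq gave 1 library each for naive left lungs and for grafts 2 hours and 3 days after reperfusion, each from 2 pooled mice. The authors deposited unnormalized UMI counts per gene and barcode, called as cells by Cell Ranger (version 7.1.0 in the naive header and 6.0.0 in both transplant headers, against version 6 in the submitters' notes, which also list Seurat 4 and mm10). The kit is given as 3′ in the methods and as both 5′ and 3′ in the labels. Counts of 277 antibody features in 2 libraries named no member and were not used. Deposited barcodes numbered 2921, 10328 and 9016 in the naive, 2-hour and 3-day libraries and total counts 28538529, 10749100 and 70750470.

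The filter of the methods was applied, which asks for over 200 and below 6000 genes, below 25000 UMIs and less than 10% from mitochondrial genes. Seurat 5.3.0 (R 4.3.3, sctransform 0.4.2) clustered all cells without the members (30 components, resolution 0.8). Clusters were named from 19 marker lists, where the markers' median log2 ratio and at least 3 of them exceeded 1 and no markers of another lineage led the top 10 genes. Scrublet in scanpy 1.11.5 called 40, 403 and 277 doublets, which were removed only in an alternative. UMIs were summed per library and lineage, with Poisson intervals for levels, exact conditional intervals for ratios and Clopper-Pearson intervals for shares. A sum of 0 was given the level of 3 counts. The members, marker lists and gene lists were chosen with earlier results of these data known. The text names all members, the 3 genes most like each, and at most 4 genes per list past 2-fold. Of 32285 gene identifiers, 32235 were found in GENCODE vM21 (GRCm38), which gave positions and intron lengths, and promoter sequences came from RefSeq (GRCm38.p6) for all 7 members. Ratio code was tested on simulated data. Each condition had 1 library, so no p-value was computed. Alternatives changed the cell filter, cell calling, doublets, resolution (0.4, 1.2), scaling, depth and background.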

Additional observations from a re-analysis of the deposited data

Results flagged for a closer look

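For 4 members, the difference between a pair of libraries ran opposite ways in lineages of granulocytes, monocytes and macrophages, with both counting intervals clear of 0. These differences between lineages were not tested, since each condition had 1 library. Il1a at 3 days over 2 hours had a log2 ratio of 3.15 in macrophage-like and -0.63 in neutrophil-like cells, and the former rests on 4 UMIs at 2 hours. The macrophage-like cells fell mostly in cluster 16 at 2 hours and mostly in cluster 9 at 3 days. Il1b in the same libraries had 0.98 in macrophage-like and -0.92 in monocyte-like cells. The latter was 0.069 with neutrophil RNA, as estimated from S100a8 and S100a9, subtracted. Il1rn at 3 days over naive had 2.63 in monocyte-like and -0.12 in neutrophil-like cells, and at 3 days over 2 hours 0.999 in macrophage-like and -2.91 in monocyte-like cells. Monocyte-like cells were mostly cluster 25 in naive lungs and cluster 11 at 2 hours, both nearest to nonclassical markers, and at 3 days cluster 7, nearest to classical markers. Il1r2 had 4.08 in basophil-like and -0.46 in neutrophil-like cells at 2 hours over naive, and 3.26 and -0.83 at 3 days over naive. The basophil-like values start from 2 UMIs in 20 naive cells. The neutrophil-derived level of Il1r2 in basophil-like cells, at the S100a8 and S100a9 ratio, would be 67.1 of 213 CPM at 2 hours and 55.5 of 120 CPM at 3 days.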

How the results depend on the processing

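Log2 ratios of CPM between libraries were recomputed under 13 alternatives, 3 of them chosen after seeing the data (clusters 18 and 26 counted as neutrophil-like, neutrophil RNA subtracted by S100a8 and S100a9, and the median of genes of like intronic length subtracted). Of 61 ratios past 2-fold, 705 of the 722 alternative values that could be computed kept the direction. Over all 117 ratios, 111 alternative values had no result because a level was missing or came to 0 or below. Neutrophil subtraction gave a value for 42 of the 61 ratios, and T-like subtraction for 38. After neutrophil subtraction, Il1b at 2 hours was -6.30, -11.9 and -1.89 CPM in NK-like, T-like and B-like cells, so its ratios are not in this count. A total over genes with under 10 kb of introns moved the 2-hour to naive ratios in neutrophil-like cells most, to 0.18 for Il1b, 1.197 for Il1rn and -0.94 for Il1r2, and the 3-day to 2-hour ratios of Il1b to -0.36 in neutrophil-like and -0.84 in monocyte-like cells. Subtracting the median of genes of like intronic length gave 0.47, 1.49, -0.12, -0.66 and -1.07 for these 5 ratios, thinning to 500 UMIs 0.56, 1.44, -0.42, -0.33 and -0.52, and the mean over cells 0.57, 1.57, -0.51, -0.34 and -0.62. Thinning also moved Il1rn to Il1b at 2 hours over naive to 0.88. Calling cells singly gave 0.59 for Il1b and -0.58 for Il1r2 at 2 hours over naive in neutrophil-like cells, and -0.32 and -0.10 for Il1b at 3 days over 2 hours in neutrophil-like and monocyte-like cells. Without the cell filter, the 2-hour to naive ratio of Il1b was 0.68, and with T-like levels subtracted 0.62. The 3-day to 2-hour ratio of Il1b in neutrophil-like cells was -0.37 without doublets, -0.37 with a total outside ribosomal, mitochondrial and immunoglobulin genes, -0.38 with clusters 18 and 26, and -0.38 and -0.43 at resolutions 0.4 and 1.2. In monocyte-like cells it was -0.83 with that total, -1.09 at resolution 1.2, -1.04 with T-like levels subtracted and 0.069 with neutrophil RNA subtracted, and it had no value at resolution 0.4.

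Signs turned for Il1a in neutrophil-like cells at 3 days over naive (0.12 with cells called singly, 0.10 at resolution 0.4, 0.10 with clusters 18 and 26) and in macrophage-like cells at 2 hours over naive (0.73 after thinning). Subtracting the median of like genes turned Il1rap at 2 hours and 3 days over naive in neutrophil-like cells (0.39, 0.12) and at 3 days over naive in monocyte-like (0.27) and T-like cells (0.69). In T-like cells Il1rl1 at 3 days over naive came to 0.00325 without the cell filter and 1.32 with cells called singly. At 3 days over 2 hours, Il1rn turned in NK-like cells with T-like levels (0.10) or neutrophil RNA (0.26) subtracted, in T-like cells with neutrophil RNA subtracted (0.87) and in B-like cells without the cell filter (0.19) or with T-like levels subtracted (0.24), and Il1b turned in B-like cells without the filter (0.22) or with cells called singly (0.37). Causes were not tested, including where a setting removed cells or RNA. No paired analysis was possible because each condition had 1 library. The 2-hour library was shallowest, at a median of 878 UMIs per cell, which limits Il1r1, Il1a and Il1rl1 most.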
